A study of Homo sapiens with 8 samples.

Results

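The 10 genes described here encode proteins that decide between survival and apoptosis: the pro-survival proteins MCL1 and BCL2L1 (BCL-XL), the effector BAX, the BH3-only proteins BID, BCL2L11 (BIM), BBC3 (PUMA) and PMAIP1 (NOXA), and the death receptors TNFRSF10A (DR4), TNFRSF10B (DR5) and FAS. They were taken by name, by matching the Ensembl identifiers of the deposited count table to gene symbols. All 10 were found among its 60617 genes, and all 10 were among the 17693 genes with enough counts to be tested. RNA sequencing was done on MCF-10A cells, an established human mammary epithelial line that does not form tumours, in 4 groups of 2 libraries. The groups were Empty cells left untreated, Empty cells given 1 µM JG-98 for 12 h, NeuT cells left untreated, and NeuT cells given 1 µM JG-98 for 12 h. JG-98 inhibits chaperones of the Hsp70 family, and the design text gives as its question the sensitivity of transformed cells to this compound. The labels leave unsaid which construct NeuT refers to, whether either line is a clone, which solvent the untreated cells received, if any, and whether the 2 libraries of a group came from separate cultures, so p-values measure only the spread between these libraries.

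In the mitochondrial pathway of apoptosis, BH3-only proteins bind the pro-survival members of the BCL2 family and free or activate effectors such as BAX, which open the outer mitochondrial membrane and release cytochrome c. In the death receptor pathway, the ligands TRAIL and FASL bind receptors that assemble a complex activating caspase-8, and caspase-8 can cut BID and so join the pathways. Many of these genes are targets of p53, and PMAIP1, BBC3 and TNFRSF10B are also known targets of ATF4 and of DDIT3 (CHOP), transcription factors of the stress response that follows phosphorylation of eIF2α.

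Total counts were 37341458 in replicate 1 of Empty with JG-98 and 55050996 to 56861971 in the other 7 libraries. Levels of 1 gene across libraries are given as CPM, read counts scaled to library size with TMM factors, and levels of different genes as RPKM, which is CPM divided by gene length in kilobases. The labelled cell type was checked with 10 epithelial markers, whose summed level was 24320 to 25431 CPM in the Empty libraries and 28983 to 32122 CPM in the NeuT libraries. Without KRT6A, the most abundant, the sums were 18454 to 19121 CPM and 19396 to 20678 CPM. Between the untreated lines, where 42% of all tested genes were called at an edgeR adjusted p under 0.05, 7 of the 10 markers were called higher in NeuT and 2 lower, and with JG-98 6 and 3. Among the lower was EPCAM (log2 difference -1.07 without the drug, edgeR adjusted p = 7.83e-10), which was named after its values were seen. In bulk RNA, fewer cells of a kind and less RNA per cell cannot be told apart.

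Over all libraries MCL1 had the highest mean level per length of the 10 genes and BCL2L11 the lowest. Averaged over the 8 libraries, MCL1 stood at 70.7 RPKM, BCL2L1 at 57.3 RPKM and BAX at 57.0 RPKM. The TRAIL receptors TNFRSF10B and TNFRSF10A followed at 43.4 and 26.6 RPKM. BID, PMAIP1 and FAS stood at 13.0, 10.1 and 9.01 RPKM. BBC3 at 3.02 RPKM and BCL2L11 at 2.03 RPKM were the 2 lowest. MCL1 lay above 96.4% of all tested genes and BCL2L11 above 46.7%. Other genes cover 43.0% of the exonic bases of BCL2L1 and 40.6% of those of FAS. How reads from shared bases were counted is not given, so the levels of these genes relative to others are uncertain. The order was not the same in every group. In untreated Empty BBC3 was the lowest, at 2.30 RPKM, with BCL2L11 at 2.50 RPKM. BAX exceeded BCL2L1 in Empty cells (48.9 ± 2.2 against 39.5 ± 3.5 RPKM untreated, SD, n = 2), while in NeuT cells BCL2L1 and BAX were within their spread of each other without the drug (68.0 ± 0.86 and 66.1 ± 3.7 RPKM, SD, n = 2).

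**Figure D1:**
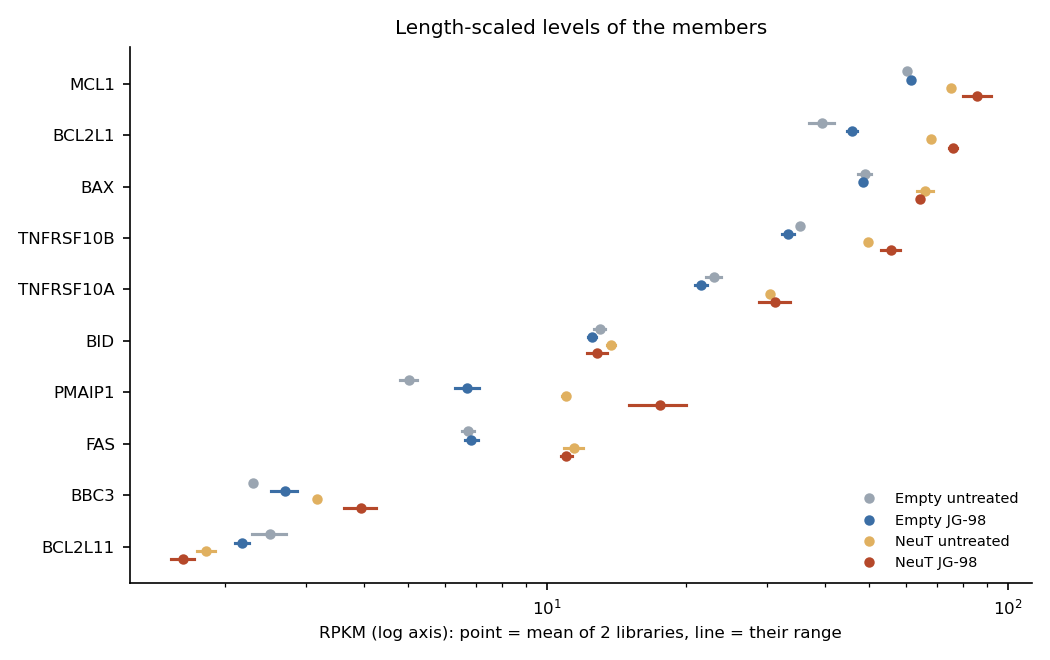
Length-scaled levels of the 10 genes on a log axis (RPKM), with a point for the mean of the 2 libraries of each group and a line for their range. MCL1, BCL2L1 and BAX have group means between 39.5 and 85.8 RPKM, and BBC3 and BCL2L11 between 1.62 and 3.94 RPKM.

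The first question was how these genes differed after 12 h in JG-98. In NeuT cells 6 of the 10 had a positive log2 fold change. PMAIP1 was the only 1 that passed the test, higher by 0.68 on the log2 scale. In Empty cells none of the 10 passed the test, and PMAIP1 and BCL2L1 had the smallest p-values there. Genes were called at an adjusted p under 0.05 in the quasi-likelihood test of edgeR, with Benjamini-Hochberg adjustment over all 17693 genes. By that rule 0 of 10 were called in Empty, where 0.339% of all tested genes were called, 0.26% higher and 0.0791% lower. In NeuT 1 of 10 was called, where 3.01% of all tested genes were, 2.01% higher and 1.01% lower. Treated and untreated libraries did not overlap for 6 of the 10 in Empty, 4 higher and 2 lower, against 43.1% of all tested genes, 20.9% higher and 22.2% lower. In NeuT they did not overlap for 6 of the 10, 5 higher and 1 lower, against 44.8%, 21.9% higher and 22.9% lower. At an unadjusted p under 0.05 there were 2 in Empty and 5 in NeuT, and DESeq2 and limma-voom gave the same counts of 0 and 1 called. The median log2 fold change of the 10 was 0.0056 in Empty and 0.097 in NeuT, beside -0.0033 and 0.00021 over all tested genes. The difference between the lines in the response, tested as an interaction, was called for 0 of 10, with 0.00565% of all tested genes called and 1 of the 10 at an unadjusted p under 0.05. DESeq2 and limma-voom also called none of the 10 in the interaction. An exact permutation test of 2 libraries against 2 cannot give a p below 0.333, so these tests rest on a spread shared across genes.

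The second question was how NeuT and Empty cells differed in these genes. NeuT cells had more RNA of both pro-survival genes, of BAX, of BBC3 and PMAIP1 and of all 3 death receptors, and less of BCL2L11. BID was not called. Without the drug 8 of 10 were called higher and 1 lower in NeuT, in a comparison that called 42% of all tested genes, 21.2% higher and 20.8% lower. With the drug the counts were again 8 and 1, where 41.7% of all tested genes were called, 21.7% higher and 20% lower. The lines did not overlap for all 10 without the drug, 9 higher and 1 lower in NeuT, against 73.2% of all tested genes, 36.1% higher and 37.1% lower. With the drug they did not overlap for 9, 8 higher and 1 lower, against 67.6%, 34% higher and 33.6% lower. The median log2 difference of the 10 was 0.45 without and 0.54 with JG-98, beside -0.016 and -0.0011 over all tested genes. These comparisons use the same libraries as those of JG-98, so their values stand side by side and are not independent. PMAIP1 was the most different of the 10 and MCL1 the least different of the 8 that were higher without the drug.

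Markers of other cell types also differed between the lines. The summed level of 7 fibroblast markers was 8.52 to 9.82 CPM in Empty and 68.4 to 83.0 CPM in NeuT, and nearly all of the difference was DCN. Without DCN the sum was 5.51 to 6.56 CPM in all libraries, and PDGFRA and LUM had at most 3 counts in any library. Of the immune markers, CD14 stood at 5.01 to 6.92 CPM in Empty and 10.7 to 12.2 CPM in NeuT, while PTPRC, CD3E and CD68 had at most 4 counts in any library. The 3 endothelial markers summed to 10.6 to 15.1 CPM in Empty and 8.29 to 9.94 CPM in NeuT, nearly all of it PECAM1. CDH5 went the other way, with 2 to 7 counts in the Empty libraries and 16 to 34 in the NeuT libraries (log2 difference 2.22 without the drug, edgeR adjusted p = 0.00782). Their part in the differences between the lines was not tested.

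**Figure D2:**
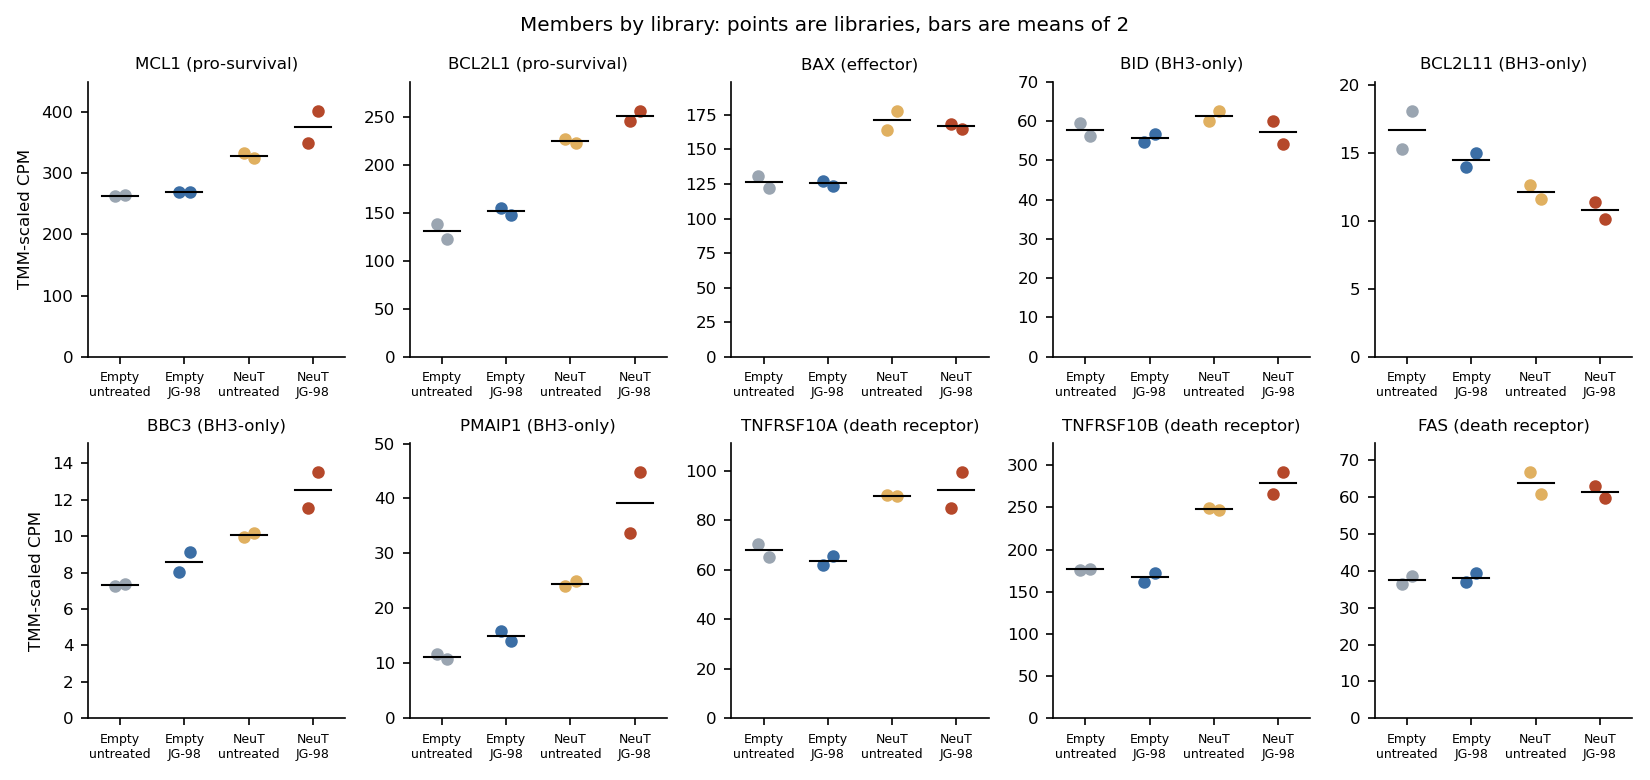
TMM-scaled CPM of each of the 10 genes, with a point per library and a bar for the mean of the 2 libraries of a group. For PMAIP1 the points climb from 10.7 CPM in an untreated Empty library to 44.7 CPM in a NeuT library with JG-98, while the 8 BID points stay between 54.1 and 62.5 CPM.

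Among the pro-survival genes, MCL1 encodes a short-lived protein that restrains BAK and BIM and is the main partner of NOXA. MCL1 (ENSG00000143384, GRCh38 chromosome 1, 150574551 to 150579738) stood at 262.8 and 264.0 CPM in untreated Empty, 269.6 and 269.6 CPM in Empty with JG-98, 332.3 and 324.6 CPM in untreated NeuT, and 348.8 and 401.4 CPM in NeuT with JG-98. No group overlapped another, and the step from untreated to treated was wider in NeuT than in Empty. With JG-98 the log2 fold change was 0.034 in Empty (SE 0.061, edgeR adjusted p = 0.915) and 0.19 in NeuT (SE 0.061, edgeR adjusted p = 0.1099). Neither was called, and the interaction of 0.16 had a 95% interval of -0.024 to 0.34. NeuT exceeded Empty by 0.32 without the drug (edgeR adjusted p = 0.000415) and by 0.48 with it (edgeR adjusted p = 6.75e-06).

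BCL2L1 encodes BCL-XL, which holds BAX and several BH3-only proteins in check. BCL2L1 (ENSG00000171552, chromosome 20, 31664452 to 31723989) stood at 139.0 and 122.7 CPM in untreated Empty, 155.7 and 148.4 CPM in Empty with JG-98, 227.2 and 223.2 CPM in untreated NeuT, and 246.2 and 256.5 CPM in NeuT with JG-98. The 4 groups lay in that order with no overlap, and the gap between the lines was the widest step. NeuT exceeded Empty 1.72-fold without the drug (log2 difference 0.78, SE 0.062, edgeR adjusted p = 2.18e-08). With JG-98 the log2 fold change was 0.22 in Empty (SE 0.062, edgeR adjusted p = 0.205) and 0.16 in NeuT (SE 0.061, edgeR adjusted p = 0.204), and neither was called. Exons of ABALON, an RNA that had 35 to 105 counts per library, cover 43.0% of the exonic bases of BCL2L1, so the assignment of reads there is uncertain. ABALON was higher in NeuT with the drug (log2 difference 0.88, edgeR adjusted p = 0.00949). Without the drug its difference of 0.55 was not called (edgeR adjusted p = 0.0829).

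BAX is the effector among the 10. BAX (ENSG00000087088, chromosome 19, 48954815 to 48961798) stood at 130.6 and 122.4 CPM in untreated Empty, 127.5 and 123.4 CPM in Empty with JG-98, 164.2 and 177.8 CPM in untreated NeuT, and 168.2 and 165.1 CPM in NeuT with JG-98. The drug groups overlapped the untreated ones within each line, and the lines did not overlap. In NeuT BAX was higher by 0.43 on the log2 scale without the drug (edgeR adjusted p = 1.18e-05) and 0.41 with it (edgeR adjusted p = 2.24e-05). The log2 fold changes with JG-98 were -0.013 in Empty and -0.037 in NeuT, with 95% intervals of -0.14 to 0.11 and -0.16 to 0.086.

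PMAIP1 encodes NOXA, a BH3-only protein that binds MCL1 and promotes its breakdown. PMAIP1 (ENSG00000141682, chromosome 18, 59899948 to 59904306) stood at 11.7 and 10.7 CPM in untreated Empty, 15.9 and 14.1 CPM in Empty with JG-98, 24.1 and 24.9 CPM in untreated NeuT, and 33.7 and 44.7 CPM in NeuT with JG-98. The groups lay in that order without overlap, the highest group mean was 3.502 times the lowest, and the 2 treated NeuT libraries were far apart. They were also the most unlike pair of the 4 groups over 9551 well-measured genes, with a median absolute log2 difference of 0.106, against 0.0537 to 0.0783 in the other 3 groups. With JG-98 PMAIP1 rose in NeuT by 0.68 on the log2 scale (SE 0.11, 95% interval 0.44 to 0.91, edgeR adjusted p = 0.00328). By size of the log2 fold change it was number 832 from the top of the tested genes, and by p-value number 129. In Empty the value was 0.42 (SE 0.12, 95% interval 0.16 to 0.68, edgeR adjusted p = 0.224). The interaction of 0.26 (95% interval -0.093 to 0.61, edgeR adjusted p = 0.730) was not called, so a difference in response between the lines is not shown. NeuT exceeded Empty 2.19-fold without the drug (log2 difference 1.13, edgeR adjusted p = 1.73e-06) and 2.62-fold with it (1.39, edgeR adjusted p = 1.38e-07). The call in NeuT was lost without untreated NeuT replicate 1, at 0.65 with an edgeR adjusted p of 0.0743, and without treated NeuT replicate 2 the value was 0.45 (edgeR adjusted p = 0.00843). In Empty the value was 0.33 without the shallow library, treated replicate 1 (edgeR adjusted p = 0.812), and PMAIP1 passed with no filter on low counts (edgeR adjusted p = 0.00337) and with only the 4 Empty libraries in the fit (edgeR adjusted p = 0.0437).

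BBC3 encodes PUMA, which binds every pro-survival protein of the family. BBC3 (ENSG00000105327, chromosome 19, 47220822 to 47232766) stood at 7.28 and 7.38 CPM in untreated Empty, 8.01 and 9.12 CPM in Empty with JG-98, 9.94 and 10.2 CPM in untreated NeuT, and 11.5 and 13.5 CPM in NeuT with JG-98. As for PMAIP1, the groups lay in that order without overlap. The log2 fold changes with JG-98, 0.23 in Empty (SE 0.11, edgeR adjusted p = 0.530) and 0.31 in NeuT (SE 0.11, edgeR adjusted p = 0.150), were not called. BBC3 was higher in NeuT by 0.46 without the drug (edgeR adjusted p = 0.00321) and by 0.54 with it (edgeR adjusted p = 0.000755).

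BCL2L11 encodes BIM, a BH3-only protein that can activate BAX directly, and its order of groups was the reverse. BCL2L11 (ENSG00000153094, chromosome 2, 111119378 to 111168445) stood at 15.3 and 18.1 CPM in untreated Empty, 14.0 and 15.0 CPM in Empty with JG-98, 12.6 and 11.6 CPM in untreated NeuT, and 11.4 and 10.1 CPM in NeuT with JG-98. Untreated Empty was highest and treated NeuT lowest, with no overlap between neighbouring groups. BCL2L11 was lower in NeuT by a log2 difference of -0.46 without the drug (SE 0.11, edgeR adjusted p = 0.00196) and -0.43 with it (SE 0.11, edgeR adjusted p = 0.00377). Without untreated Empty replicate 2 the first of these was -0.33 and not called (edgeR adjusted p = 0.0579). The log2 fold changes with JG-98, -0.20 in Empty (edgeR adjusted p = 0.569) and -0.17 in NeuT (edgeR adjusted p = 0.486), were not called. Exons of MIR4435-2HG, which was higher in NeuT, cover 10.9% of the exonic bases of BCL2L11.

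BID links the pathways, since its protein is cut by caspase-8 and then acts at mitochondria. BID (ENSG00000015475, chromosome 22, 17734138 to 17774770) stood at 59.5 and 56.1 CPM in untreated Empty, 54.6 and 56.7 CPM in Empty with JG-98, 60.02 and 62.5 CPM in untreated NeuT, and 60.05 and 54.1 CPM in NeuT with JG-98. The highest group mean was 1.10 times the lowest, and most neighbouring groups overlapped. BID was the 1 gene of the 10 called in no comparison. Its log2 difference between the lines was 0.084 without the drug (95% interval -0.058 to 0.23, edgeR adjusted p = 0.347) and 0.037 with it (95% interval -0.11 to 0.18, edgeR adjusted p = 0.708).

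Of the death receptors, TNFRSF10B encodes DR5, a receptor for TRAIL. TNFRSF10B (ENSG00000120889, chromosome 8, 23020133 to 23069031) stood at 176.2 and 177.4 CPM in untreated Empty, 161.9 and 172.4 CPM in Empty with JG-98, 249.4 and 247.2 CPM in untreated NeuT, and 265.5 and 291.5 CPM in NeuT with JG-98. The treated libraries lay below the untreated ones in Empty and above them in NeuT. The log2 fold changes were -0.080 in Empty (SE 0.058, edgeR adjusted p = 0.703) and 0.17 in NeuT (SE 0.057, edgeR adjusted p = 0.151), and neither was called. Their difference of 0.25 (SE 0.081, 95% interval 0.074 to 0.42) had the smallest interaction p of the 10 genes and was not called (edgeR adjusted p = 0.509). TNFRSF10B was higher in NeuT by 0.49 without the drug (edgeR adjusted p = 2.72e-06) and by 0.74 with it (edgeR adjusted p = 2.02e-08).

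TNFRSF10A encodes DR4, the other TRAIL receptor with a death domain. TNFRSF10A (ENSG00000104689, chromosome 8, 23190452 to 23225126) stood at 70.5 and 65.2 CPM in untreated Empty, 61.8 and 65.7 CPM in Empty with JG-98, 90.2 and 89.7 CPM in untreated NeuT, and 85.0 and 99.4 CPM in NeuT with JG-98. Treated and untreated libraries overlapped within each line. The lines did not overlap, with log2 differences of 0.41 without the drug (edgeR adjusted p = 0.000224) and 0.53 with it (edgeR adjusted p = 1.58e-05). Exons of TNFRSF10A-AS1 and TNFRSF10A-DT, with 163 to 375 and 265 to 383 counts per library, cover 16.6% of its exonic bases. TNFRSF10A-AS1 was itself higher in NeuT, by 0.41 without the drug (edgeR adjusted p = 0.0233) and by 0.61 with it (edgeR adjusted p = 0.00202). TNFRSF10A-DT was not called in either comparison (-0.065 and -0.15). Their part in the TNFRSF10A difference was not tested.

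FAS encodes the receptor for FASL. FAS (ENSG00000026103, chromosome 10, 88990531 to 89017059) stood at 36.5 and 38.7 CPM in untreated Empty, 37.0 and 39.4 CPM in Empty with JG-98, 66.7 and 60.8 CPM in untreated NeuT, and 63.1 and 59.7 CPM in NeuT with JG-98. FAS showed no separation by the drug and a wide one by line. It was 1.69-fold higher in NeuT without the drug (log2 difference 0.76, edgeR adjusted p = 1.43e-07) and 1.61-fold with it (0.68, edgeR adjusted p = 5.50e-07). Other genes cover 40.6% of its exonic bases. ACTA2, the main one, had 203 to 657 counts per library and was itself higher in NeuT (log2 difference 0.93 without the drug, edgeR adjusted p = 3.65e-06). Whether the counting used strand is not given in the sources used here, so reads from the shared bases cannot be told apart, and the part of ACTA2 in the FAS difference was not tested.

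**Figure D3:**
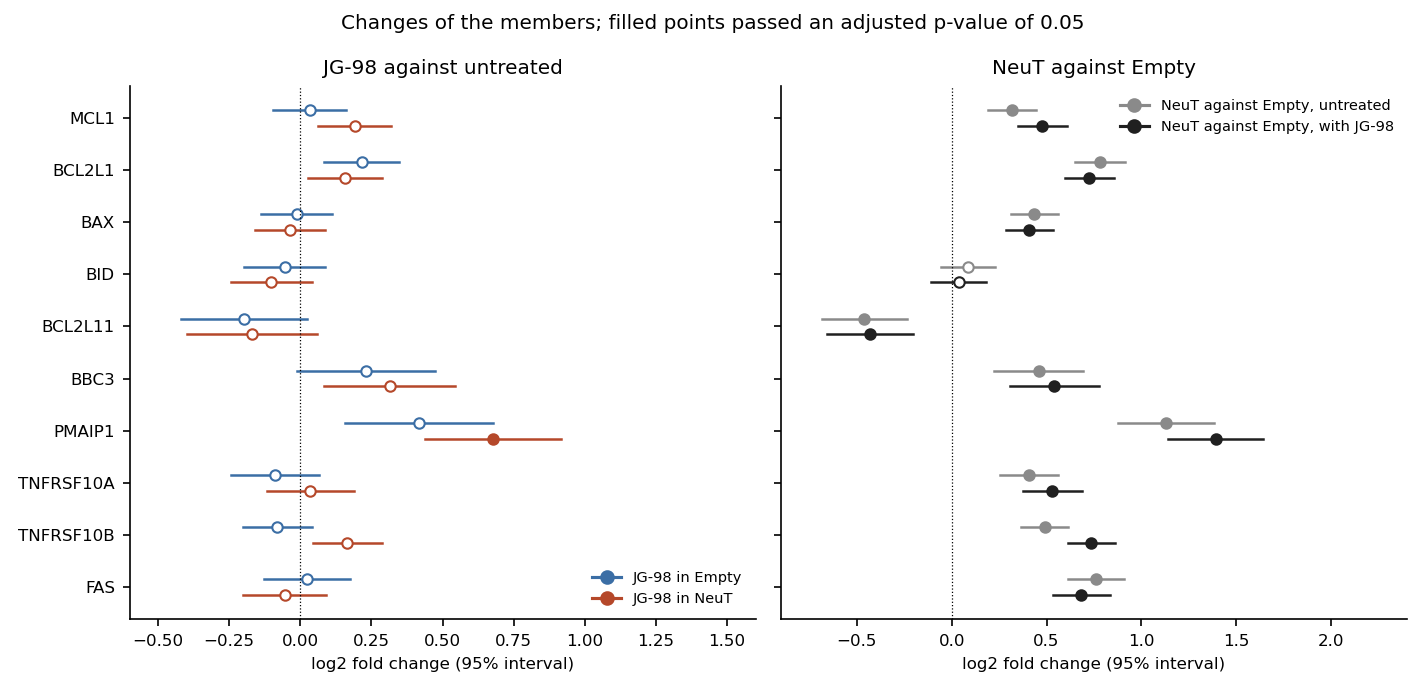
Log2 fold changes of the 10 genes with 95% intervals, for JG-98 against untreated in each line on the left and for NeuT against Empty on the right. Filled points passed an edgeR adjusted p of 0.05: PMAIP1 in NeuT at 0.68 on the left, and all but BID on the right.

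The interaction counts depended on 1 library. Without treated NeuT replicate 1, whose values lay nearer to the untreated ones for MCL1, BBC3, PMAIP1 and TNFRSF10B, 5 of 10 were called for JG-98 in NeuT and 3 of 10 in the interaction, in a fit that called 11.4% and 4.16% of its 18667 tested genes. The 3 were TNFRSF10B (0.30, edgeR adjusted p = 0.0109), MCL1 (0.25, edgeR adjusted p = 0.0263) and PMAIP1 (0.44, edgeR adjusted p = 0.0453). Without treated NeuT replicate 2 none of the 10 was called in the interaction, where the PMAIP1 value was 0.028 and the MCL1 value 0.040. The JG-98 value of MCL1 in NeuT was 0.079 without replicate 2 and 0.29 without replicate 1. With 1 library left in a group, that library is assumed to vary like those of the other groups.

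Promoter sequences are shown for the 3 genes of the 10 in which a short motif bound by ATF and CREB factors was found. PMAIP1, the gene called higher with the drug in NeuT, is among them. RefSeq promoters of GRCh38.p14, from 250 bases before to 50 after the start, were at hand for 7 of the 10 genes and were searched on both strands. Capitals mark TGACG or its reverse complement CGTCA. PMAIP1 is chr18:59899746-59900045 on the plus strand, with CGTCA beginning 55 bases before the start. BAX is chr19:48954625-48954924 on the plus strand, with TGACG beginning 134 bases before the start. BCL2L1 is chr20:31723914-31724213 on the minus strand, with TGACG beginning 201 bases before the start.
PMAIP1: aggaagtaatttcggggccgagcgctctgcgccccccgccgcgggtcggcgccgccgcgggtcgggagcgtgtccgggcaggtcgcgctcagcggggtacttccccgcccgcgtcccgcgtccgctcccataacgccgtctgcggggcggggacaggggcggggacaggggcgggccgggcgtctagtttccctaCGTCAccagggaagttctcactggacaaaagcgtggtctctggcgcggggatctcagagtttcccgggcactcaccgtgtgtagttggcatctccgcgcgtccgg
BAX: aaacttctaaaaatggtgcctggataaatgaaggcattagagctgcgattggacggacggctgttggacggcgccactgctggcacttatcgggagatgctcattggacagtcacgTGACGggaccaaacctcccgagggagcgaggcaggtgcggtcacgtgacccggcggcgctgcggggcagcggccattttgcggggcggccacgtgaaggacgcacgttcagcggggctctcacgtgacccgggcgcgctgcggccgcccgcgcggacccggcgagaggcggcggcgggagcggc
BCL2L1: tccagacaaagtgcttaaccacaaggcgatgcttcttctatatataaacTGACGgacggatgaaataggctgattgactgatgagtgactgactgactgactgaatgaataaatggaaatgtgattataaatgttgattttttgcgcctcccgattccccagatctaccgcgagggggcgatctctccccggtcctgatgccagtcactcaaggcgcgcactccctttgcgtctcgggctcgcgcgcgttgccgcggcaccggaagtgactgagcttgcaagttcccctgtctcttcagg
The motif TGACG occurs in 24.6% of 35116 promoters of this length. The full palindrome TGACGTCA, which contains TGACG on both strands, occurs in 1.85% of them and in none of the promoters of the 7 genes. The element TGATGNAAN, to which C/EBP and ATF dimers bind, occurs in 3.61% and in none of the 7. Some genes have several RefSeq starts, and 3 of the 14 promoters of the 7 genes held TGACG (21.4%), which is below the share of all promoters. The other BCL2L1 promoter held none. A match is a description of the letters in this window.

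Balances between partners were read as ratios of RPKM within a library, in pairs chosen after the values were seen and therefore without a test. NOXA RNA per 100 RPKM of MCL1 was 8.68 and 7.95 in untreated Empty, 11.5 and 10.2 in Empty with JG-98, 14.2 and 15.0 in untreated NeuT, and 18.9 and 21.8 in NeuT with JG-98. The 4 groups lay in that order, since the step in PMAIP1 was larger than that in MCL1. BCL2L11 per 100 RPKM of BCL2L1 went the other way, from 5.46 and 7.34 in untreated Empty through 4.47 and 5.03 in Empty with JG-98 and 2.77 and 2.58 in untreated NeuT to 2.30 and 1.97 in NeuT with JG-98. BBC3 per 100 RPKM of MCL1 was 3.80 and 3.84 in untreated Empty, 4.08 and 4.65 in Empty with JG-98, 4.11 and 4.31 in untreated NeuT, and 4.55 and 4.62 in NeuT with JG-98. Untreated Empty was lowest, and the range of treated Empty spanned both NeuT groups. BAX per 100 RPKM of BCL2L1 was 120.3 and 127.9 in untreated Empty, 104.9 and 106.6 in Empty with JG-98, 92.6 and 102.0 in untreated NeuT, and 87.5 and 82.5 in NeuT with JG-98. Its highest libraries were those of untreated Empty and its lowest those of treated NeuT. The ratios to BCL2L1 carry the uncertain assignment of reads to that gene. TNFRSF10B per 100 RPKM of TNFRSF10A was 147.2 and 160.3 in untreated Empty, 154.3 and 154.5 in Empty with JG-98, 162.8 and 162.3 in untreated NeuT, and 184.0 and 172.8 in NeuT with JG-98, the highest group. DR5 was also set against TNFRSF10D, a TRAIL receptor that lacks a working death domain. TNFRSF10B per 100 RPKM of TNFRSF10D was 145.9 and 142.3 in untreated Empty, 168.2 and 162.3 in Empty with JG-98, 105.2 and 102.1 in untreated NeuT, and 123.6 and 138.6 in NeuT with JG-98. This ratio was higher with the drug in both lines and lower in NeuT than in Empty, and with the drug TNFRSF10D stood lower in each line without being called by edgeR, at -0.28 in Empty (edgeR adjusted p = 0.0654) and -0.17 in NeuT (edgeR adjusted p = 0.140). TNFRSF10D was 0.97 higher in NeuT on the log2 scale (edgeR adjusted p = 9.43e-10).

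**Figure D4:**
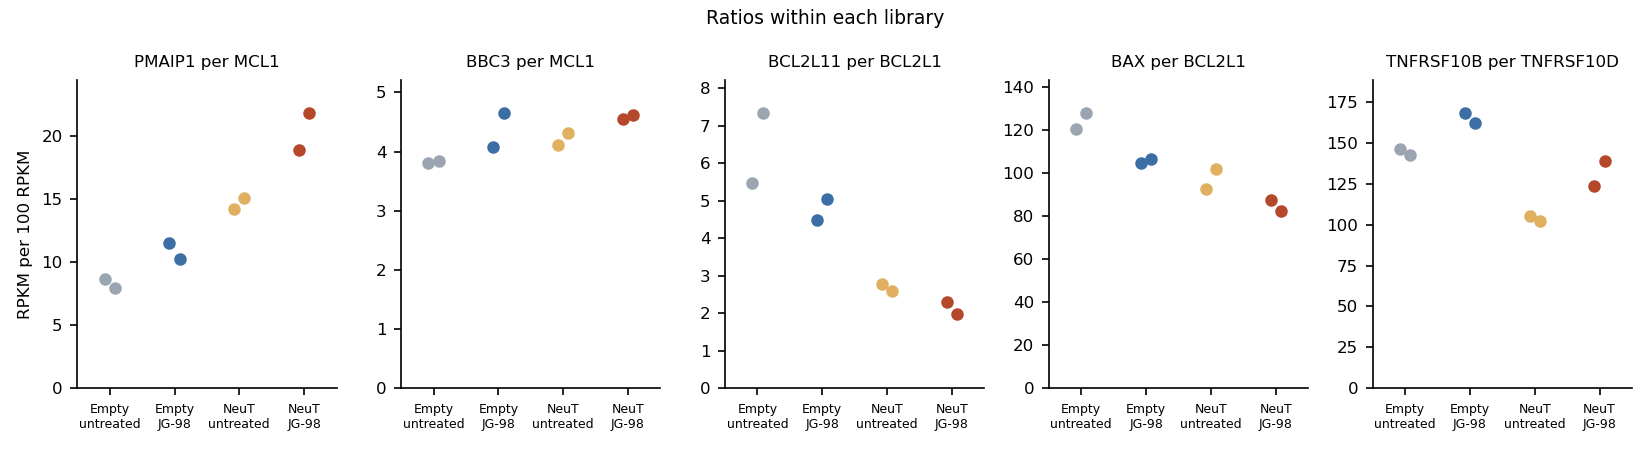
Ratios of RPKM within each library for 5 pairs of genes, as RPKM of the first per 100 RPKM of the second, with a point per library. PMAIP1 per MCL1 climbs from 7.95 to 21.8 across the groups, and BCL2L11 per BCL2L1 declines from 7.34 to 1.97.

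The related genes were read against the 0.339% of all tested genes called with JG-98 in Empty and the 3.01% called in NeuT. Of 13 other BCL2 family genes tested, 1 was lower in Empty, and 1 was higher and 1 lower in NeuT. BNIP3, which encodes a mitophagy receptor with a BH3-like domain, fell in both lines, by 0.37 in Empty (edgeR adjusted p = 0.0468) and by 0.32 in NeuT (edgeR adjusted p = 0.0239). BCL2L2, the gene of pro-survival BCL-W, rose by 0.32 in NeuT (edgeR adjusted p = 0.0481). Of 17 genes of caspases, the apoptosome and their inhibitors, none was called in Empty by edgeR, DESeq2 or limma-voom. At an unadjusted p under 0.05 there were 2 by edgeR, 1 by DESeq2 and 1 by limma-voom. In NeuT BIRC3, which encodes the inhibitor cIAP2, rose by 0.35 (edgeR adjusted p = 0.0496), and BIRC5, which encodes survivin, fell by 0.35 (edgeR adjusted p = 0.0218). These calls were lost under 7 of 13 alternatives for BNIP3 in Empty and for BCL2L2 and BIRC3 in NeuT, and under 4 of 13 for BNIP3 and BIRC5 in NeuT. Without treated NeuT replicate 2 the NeuT values were -0.20 for BNIP3, 0.21 for BCL2L2, 0.17 for BIRC3 and -0.23 for BIRC5, none called, and without treated NeuT replicate 1 they were -0.46, 0.42, 0.51 and -0.50, all called.

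None of 12 other death receptor pathway genes was called by edgeR with JG-98 in either line, with 5 in Empty and 4 in NeuT at an unadjusted p under 0.05. DESeq2 called 1 of them in Empty, TNFRSF10D (DESeq2 adjusted p = 0.00632, lower), and none in NeuT, and limma-voom none in either. None of 14 p53 targets was called by edgeR, DESeq2 or limma-voom in either line, and 3 in Empty and 5 in NeuT had an unadjusted edgeR p under 0.05. The medians of the death receptor and p53 lists were -0.064 and 0.0011 in NeuT, beside 0.00021 over all tested genes. The upstream factor DDIT3 rose in both lines, by 1.33 in Empty (edgeR adjusted p = 0.00156) and by 2.60 in NeuT (edgeR adjusted p = 1.58e-07). ATF4 rose by 0.51 and 1.34 (edgeR adjusted p = 0.0157 and 1.67e-06). ATF3 rose by 1.04 in NeuT (edgeR adjusted p = 0.00205), and in Empty its value was 0.67 (edgeR adjusted p = 0.144). The ATF4 call in Empty was lost when any 1 of the 4 Empty libraries was left out, at 0.46 to 0.55 with edgeR adjusted p-values of 0.0773 to 0.372. The calls of DDIT3 in Empty and ATF3 in NeuT were lost without treated Empty replicate 1 and untreated NeuT replicate 1 (edgeR adjusted p = 0.0526 and 0.0506). DESeq2 called 3 of the 4 upstream factors in Empty, where edgeR called 2. The interaction was 0.83 for ATF4 (edgeR adjusted p = 0.0579), 1.27 for DDIT3 (edgeR adjusted p = 0.152) and 0.37 for ATF3 (edgeR adjusted p = 0.719). Neither edgeR nor limma-voom called any of the 4 in the interaction, and DESeq2 called ATF4 and DDIT3. Whether these responses differ between the lines thus depended on the tool. The other upstream factor, FOXO3, which can activate BCL2L11 and PMAIP1, was not called in either line (-0.11 in Empty, 0.047 in NeuT). In NeuT the rise of PMAIP1, at 0.68, was smaller in size than those of ATF4, DDIT3 and ATF3.

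Between the lines, where 42% of all tested genes were called without the drug and 41.7% with it, the lists differed in direction. Of the 12 death receptor pathway genes, 9 were higher in untreated NeuT and 0 lower, with a median log2 difference of 0.37, and with JG-98 the counts were 9 and 0. TNFRSF25, which encodes the death receptor DR3, was higher by 1.40 (edgeR adjusted p = 1.29e-05) at 84 to 256 counts per library. Of the 14 p53 targets, 10 were higher and 1 lower without the drug (median 0.44), and 11 and 1 with it (median 0.47). The 13 other BCL2 family genes were split, with 3 higher and 4 lower without the drug. BNIP3 was higher by 1.31 (edgeR adjusted p = 4.97e-10), and BCL2 itself, at 0.17 RPKM in untreated NeuT, was lower by a log2 difference of -0.70 (edgeR adjusted p = 0.0158). BCL2 had 86 and 130 counts in untreated NeuT, and the call was lost without replicate 1 of that group (-0.41, edgeR adjusted p = 0.232) or without untreated Empty replicate 2 (-0.63, edgeR adjusted p = 0.101). With the drug 3 were higher and 3 lower, and BCL2L12 was lower at -0.75 (edgeR adjusted p = 3.52e-07). Among the 17 caspase, apoptosome and inhibitor genes 3 were higher and 6 lower without the drug, and 5 and 7 with it. BIRC3 had the largest rise among those called (1.67, edgeR adjusted p = 7.94e-09) and BIRC5 the largest fall (-1.59, edgeR adjusted p = 6.24e-11). Of the 4 upstream factors, 2 were higher and 1 lower in untreated NeuT, and 3 and 1 with JG-98. ATF4 was the lower one, at -1.14 without the drug (edgeR adjusted p = 9.43e-08) and -0.30 with it (edgeR adjusted p = 0.00828). ATF3 and FOXO3 were higher without the drug, at 0.45 and 0.38 (edgeR adjusted p = 0.0395 and 0.000153). The ATF3 call was lost under 6 of 13 alternatives, among them limma-voom and each left-out untreated library (adjusted p up to 0.181). The ATF4 value with JG-98 was -0.26 and not called without treated Empty replicate 1 (edgeR adjusted p = 0.0845), -0.14 without treated NeuT replicate 1 (edgeR adjusted p = 0.0358) and -0.47 without treated NeuT replicate 2 (edgeR adjusted p = 1.08e-07). DDIT3 was higher with JG-98 by 1.59 (edgeR adjusted p = 2.35e-07). Other genes cover 39.6% of the exonic bases of DDIT3, 33.1% of those of BCL2L12 and 24.3% of those of BCL2L2. The assignment of reads to these genes is therefore uncertain.

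**Figure D5:**
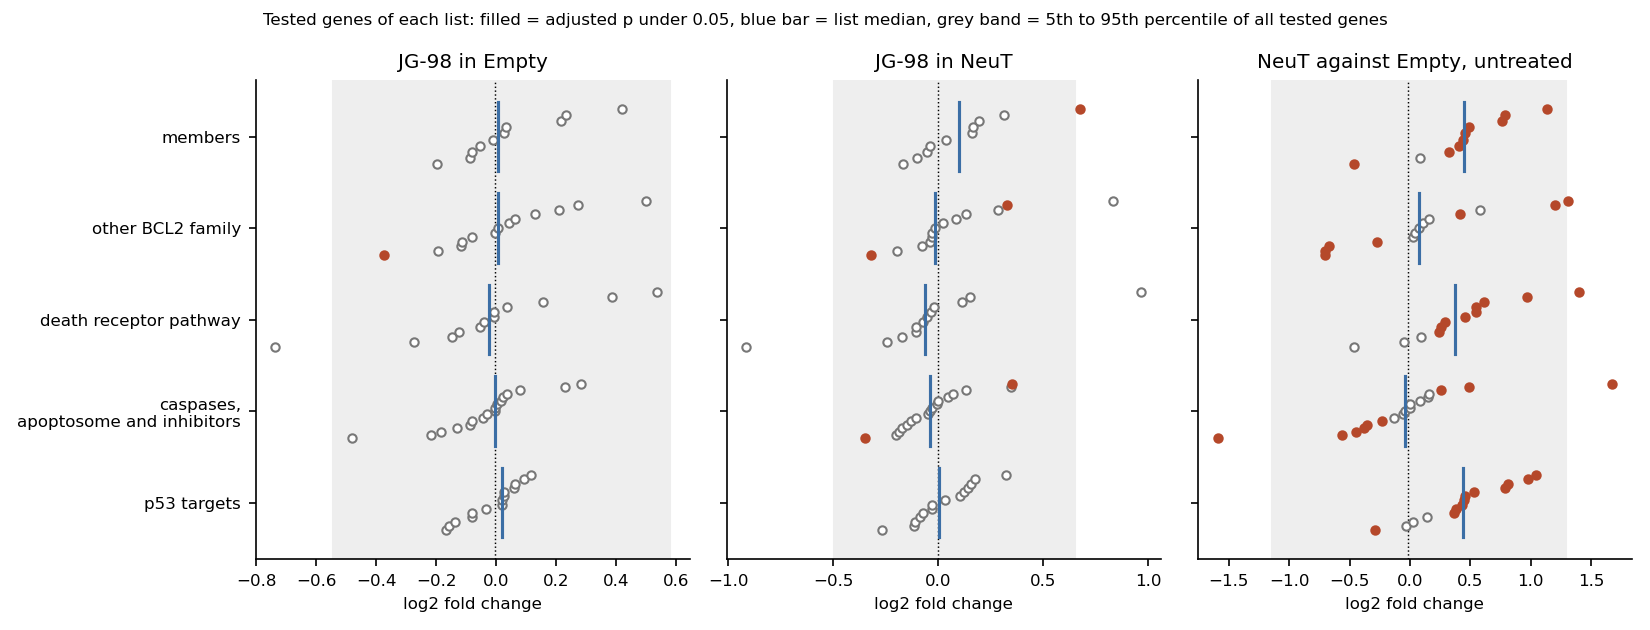
Log2 fold changes of the 10 genes (top row, named members) and of 4 lists of related genes in 3 comparisons, with a point per tested gene, filled where the edgeR adjusted p was under 0.05, a blue bar at the list median and a grey band from the 5th to the 95th percentile of all tested genes. The medians of the 10 genes, the death receptor pathway and the p53 targets lie at 0.45, 0.37 and 0.44 in the comparison of untreated lines.

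Likeness to PMAIP1 over the 8 libraries was measured as Pearson r of log2 CPM among 12746 tested genes. The highest values were those of MCTP1 (0.997), MBD1 (0.996) and PNLIPRP3 (0.996). All 3 were called higher with JG-98 in NeuT, at 0.42, 0.35 and 0.25, and none in Empty, at 0.27, 0.27 and 0.20. The highest for BCL2L1, which had the smallest p in Empty, were IRF2BPL (0.997), ANXA1 (0.996) and STAT2 (0.995). None of these 3 was called with JG-98 in either line, and their log2 differences between untreated lines were 0.58, 0.61 and 0.84. The libraries fall into 4 groups, so such values describe the order of the groups. The genes were picked for likeness in these same libraries, so calls like those of PMAIP1 or BCL2L1 are part of the choice.

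The authors' deposited tables gave the same calls for the 10 genes. In the authors' deposited table for NeuT, PMAIP1 had a log2 fold change of 0.66 with an adjusted p of 0.00524, and the other 9 genes had adjusted p-values of 0.129 or more. In the authors' deposited table for Empty, PMAIP1 stood at 0.45 with an adjusted p of 0.282, and none of the 10 was under 0.05. Outside the 10, the authors' deposited tables did not pass BNIP3 in Empty (adjusted p = 0.135) or BCL2L2 in NeuT (adjusted p = 0.0592), both called here by edgeR.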

How the data were processed

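RNA-seq libraries of MCF-10A cells were assigned to groups by the sample titles. The deposited files are a table with the raw count of each gene in each library and, per line, the authors' own comparison with log2 fold changes, a test score, p-values and adjusted p-values, per the file headers. The submitters' processing notes name Trim Galore 0.5.0, FastQC 0.11.7, HISAT2 2.1.0, SAMtools 1.9, featureCounts 1.6.3, limma and build hg38 (GRCh38). The annotation release and the use of strand or multi-mapping reads are not given in the sources used here. The number of columns of values matched to no sample was 0.

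Deposited counts were tested with edgeR 4.0.16 (R 4.3.3): filterByExpr (minimum count 10, total 15), TMM, one robust quasi-likelihood model over 8 libraries and contrasts of groups. DESeq2 1.42.0 and limma 3.58.1 served as alternatives, with other scalings, filters and left-out libraries. A count of 0 leaves room for 3 counts, at most 0.0803 CPM, which covers counting error only. Coordinates are those of the deposited table. Counts were also simulated for 17223 genes. For JG-98 in NeuT, 74 of 100 genes changed 1.5-fold, 94 of 100 changed 2-fold and 15 of 17023 unchanged genes were called. The simulation gave a gene the same spread in all groups. In the data the treated NeuT libraries were the most unlike pair (median absolute log2 difference 0.106), so these shares may not hold there.

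The 10 genes and the lists were chosen with earlier results of these data known. All 10 were named, with genes of 4 related lists and 4 upstream factors that were called with JG-98 or had the 3 largest rises or falls between lines (mean of at least 50 counts), and the 3 genes most like a called gene of the 10, or like the gene of smallest p. One marker gene is not reported here. TNFRSF10D and the ratios were added after their values were seen.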

Additional observations from a re-analysis of the deposited data

How the results depend on the processing

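Between the lines, 129 of the 130 values of the 10 genes without JG-98 kept direction and side of the threshold over the alternatives, and 128 of 130 with it. Leaving out 1 library at a time gave 8 to 9 genes called without JG-98 and 9 with it. Called genes with JG-98 in Empty rose from 0 to 1 with no filter and to 1 with only the libraries compared, PMAIP1 in both. In NeuT the count rose from 1 to 2 with no filter, which added MCL1 (adjusted p = 0.0357), and ranged from 0 to 5 with 1 library left out. The interaction count ranged from 0 to 3 in the same way. Over all genes, 60 calls in Empty became 282 with no filter, 205 with only the libraries compared, 151 with DESeq2 and 9 to 37 with 1 library left out, and 533 in NeuT became 1000, 185, 722 and 132 to 2133. The 1 call in the interaction became 138 with no filter, 26 with DESeq2 and 1 to 777 with 1 library left out. Total counts in place of TMM factors lowered the share of calls that were higher in NeuT from 50.5% to 40.7% without and from 52.0% to 41.0% with JG-98. The labels give no pairing of libraries by replicate number. Correlations of the replicate deviations between groups ran from -0.10 to 0.24, and the highest was between Empty with JG-98 and NeuT with JG-98. With the replicate block PMAIP1 in NeuT was at 0.67 (edgeR adjusted p = 0.00413), and the counts called of the 10 stayed at 0, 1, 0, 9 and 9.

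Changes of sign occurred in values that were not called. With total counts BID between lines with JG-98 was -0.038, with limma-voom BCL2 was 0.0057 in NeuT and 0.047 in the interaction, and DESeq2 gave BCL2 no adjusted p in Empty. With 1 library left out, JG-98 values in Empty ranged from -0.060 to 0.035 for BAX, -0.026 to 0.067 for FAS and -0.20 to 0.19 for BCL2. In NeuT they ranged from -0.097 to 0.014 for BAX, -0.13 to 0.011 for FAS, -0.090 to 0.14 for TNFRSF10A, -0.31 to 0.30 for BCL2 and -0.25 to 0.14 for TNFRSF25. BID between lines with JG-98 ranged from -0.032 to 0.11. Interaction values ranged from -0.12 to 0.22 for BIRC3, -0.31 to 0.30 for BCL2, -0.15 to 0.031 for BCL2L1, -0.097 to 0.15 for BCL2L11, -0.089 to 0.022 for BAX, -0.046 to 0.19 for BBC3, -0.094 to 0.17 for BNIP3, -0.13 to 0.012 for BID, -0.0071 to 0.22 for TNFRSF10A and -0.0041 to 0.21 for BCL2L2. The cause was not tested. Each of the 10 genes had at least 305 counts in every library.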
